A study of Mus musculus with 7 samples.

Results

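CD4+ T cells with and without conditional deletion of the histone demethylase gene Kdm6a were compared for the messenger RNA of the machinery in which its protein works, the Polycomb and COMPASS-like complexes that write, read and erase methyl marks on histone H3. The set held 44 genes chosen by name from knowledge of these complexes, and each was found by its symbol, paired with the Ensembl identifiers of the count table of 39017 genes through the GENCODE annotation. All 44 passed the filter on low counts that left 15968 genes to test, with 87 to 55083 reads in a library. The libraries were mRNA sequencing of CD4+ T cells sorted from lymph nodes of female C57BL/6 mice with experimental autoimmune encephalomyelitis (EAE), an autoimmune disease raised against myelin that serves as a model of multiple sclerosis. Nodes were taken on day 17, and their cells were kept for 18 hours with 25 µg/mL of a peptide of myelin oligodendrocyte glycoprotein (MOG, residues 35 to 55) before sorting. The conditional knockout (cKO) group was floxed/floxed at Kdm6a and CD4-Cre (+/-), with 4 libraries numbered 2, 3, 7 and 12. The wild-type (WT) group, littermates with 3 libraries numbered 10, 14 and 19, was also floxed/floxed at Kdm6a but CD4-Cre (-/-). Cre was present in the cKO group alone, so its effect and that of the deletion cannot be told apart. The CD4-Cre transgene acts in developing thymocytes, so deletion precedes the CD4+ stage studied. The labels give no age and do not say that each library came from its own mouse, and p-values therefore measure the spread between these libraries.

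As background, Polycomb repressive complex 2 (PRC2) places methyl groups on lysine 27 of histone H3 (H3K27) through Ezh2 or Ezh1, with Eed and Suz12 as obligate partners. Polycomb repressive complex 1 (PRC1) reads that mark through its Cbx subunits and places ubiquitin on histone H2A through Ring1 or Rnf2. Kdm6a, also called Utx, removes methyl groups from H3K27 and sits in the complexes of Kmt2c and Kmt2d, which place methyl groups on lysine 4 of histone H3 (H3K4) at enhancers. The COMPASS family, to which these belong, opposes Polycomb repression, and in T cells the balance of both marks is known to hold lineage genes on or off.

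Total counts ran from 17910536 to 28697579 per library, and cKO replicate 2 stood apart: it had the lowest total and 9.22% of its reads on the transcript Gm42418, against 2.55% to 4.26% elsewhere. It was the lowest or highest cKO library for 32 of the 44 members (72.7%), against 61.7% of all tested genes. The 3 members called by edgeR, Kdm6a, Kmt2a and Cbx6, were called without this library (6.73% of all genes called) and without the transcript (6.43%) as well. CD4 T cell markers were high in every library (Cd4 at 986 to 1241 CPM, counts per 1000000). Of these 9 markers 6 had a log2 fold change above 0 and 3 below, and 3 had an unadjusted p below 0.05, all higher in cKO. EdgeR called none, DESeq2 called Cd28 and limma voom called Cd3e, each higher in cKO. The 9 summed to 3177 to 3602 CPM in cKO and 2946 to 3393 in WT. The CD8 markers Cd8a and Cd8b1 summed to 12.9 to 16.3 CPM in cKO and 9.12 to 11.5 in WT, higher in each cKO library. Both had a positive log2 fold change with an unadjusted p below 0.05. EdgeR called neither, and DESeq2 and limma voom called Cd8b1. Cd8a was over the filter on low counts in 3 cKO libraries and 1 WT library. In the NK cell list Klre1, Klrb1c and Eomes rose (3 of 6 tested genes, of which Klre1 passed the filter on low counts through its cKO libraries alone; summed level 96.5 to 104 CPM in cKO and 55.3 to 84.9 in WT), with Ncr1 at 0.887 and 0.865 CPM. The effector genes Gzma and Prf1 were not called. Gzma had 20 to 31 reads in a cKO library and 34 to 58 in a WT library, and Prf1 had 760 to 1477 and 1165 to 1852. These reads are not scaled for depth, and every cKO library had a lower total count than every WT library. The lowest log2 fold change of the list was -0.52, for Gzma, the only 1 below 0, so that of Prf1 was not negative. Of 9 immediate early genes, which respond to handling and stimulation, 6 fell (Dusp1, Fos, Ier2, Jun, Junb and Zfp36), and the list summed to 2912 to 3417 CPM in cKO and 4797 to 5599 in WT. The other way went 2, Fosb and Atf3, with log2 fold changes above 0 of up to 0.75 and no call. All 7 B cell markers had a positive log2 fold change, from 0.68 to 1.64 with a median of 1.04. EdgeR called none of them, 1 had an unadjusted p below 0.05 and DESeq2 called 1, Fcer2a. Their sums overlapped, at 23.3 to 127 CPM in cKO and 20.8 to 52.8 in WT. Of 9 monocyte and macrophage markers 5 were tested, and all 5 had a log2 fold change above 0, up to 3.86 for Adgre1 with a median of 0.93. Adgre1 was over the filter on low counts in 4 cKO libraries and 1 WT library, with 10 to 247 reads in cKO and 3 to 11 in WT. The group where it was high therefore put it among the tested genes, and its values do not support a rise of the list. Cd14 and Adgre1 were higher in each cKO library, with an unadjusted p below 0.05 but adjusted p of 0.11 and 0.115 in edgeR, and DESeq2 called Adgre1. The monocyte and macrophage sums ran from 18.7 to 42.0 CPM in cKO and from 19.5 to 22.5 in WT. Of 4 dendritic cell markers tested 2 were above 0 and 1, Xcr1, had an unadjusted p below 0.05, with none called by edgeR or DESeq2 and sums of 17.3 to 31.8 CPM in cKO and 14.4 to 19.8 in WT. Erythrocyte markers summed to 0.379 to 2.57 and 0.473 to 1.01 CPM. No marker listed was at 0 in every library. The part of these cells and of stimulation in the calls among the 44 genes was not tested.

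Of the 44 genes, 3 changed past an adjusted p of 0.05 in edgeR's quasi-likelihood test over all genes. Kdm6a and Kmt2a fell and Cbx6 rose. These 3 calls were 6.82% of the members, while 6.44% of all tested genes passed the same threshold (2.79% higher and 3.64% lower in cKO), so the share of calls among the members was near the background. No log2 fold change among the 44 exceeded 0.42 in size. In bulk RNA fewer cells of a type and less RNA per cell cannot be told apart. The core of PRC2, the shared core of COMPASS and the H3K4 demethylases had no member past the threshold.

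**Figure D1:**
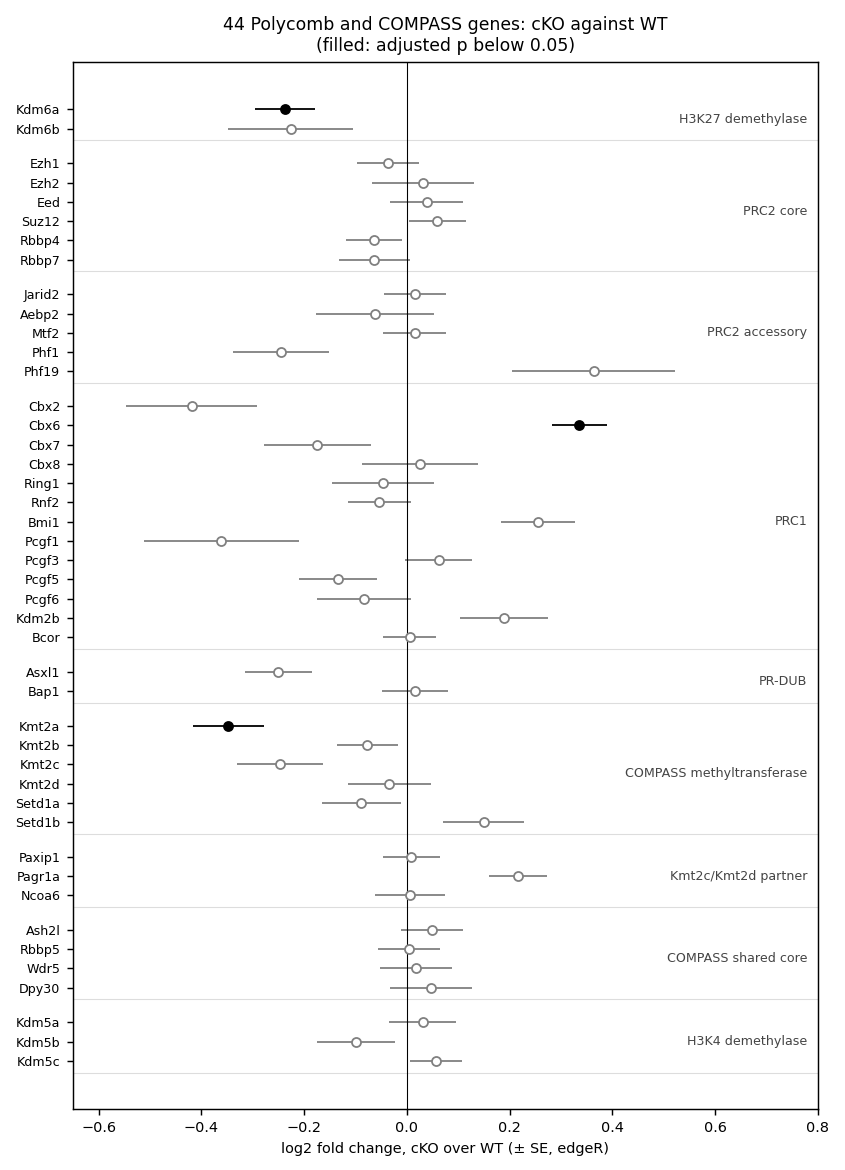
Log2 fold change of each of the 44 genes, cKO over WT, with its SE from edgeR (x axis), in groups by role (y axis). Filled points passed an adjusted p of 0.05: Kdm6a at -0.24, Kmt2a at -0.35 and Cbx6 at 0.34, and the open points lie between -0.42 and 0.36.

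Kmt2a, like Kdm2b among the PRC1 genes, encodes a protein with a CXXC domain, which is known to bind unmethylated CpG dinucleotides. Whether such a protein binds at the promoters of these genes was not tested. The promoters of Kdm6a, the deleted gene, and of Kmt2a, the other member that fell, are shown as a description only. They are the 250 bases before the RefSeq transcription start on GRCm38.p6, the patch release of the mm10 build, each 5′ to 3′ on the strand of its gene, with CpG in capitals. The Kdm6a window is chrX:18162325-18162574 on the plus strand and the Kmt2a window is chr9:44881290-44881539 on the minus strand.

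Kdm6a: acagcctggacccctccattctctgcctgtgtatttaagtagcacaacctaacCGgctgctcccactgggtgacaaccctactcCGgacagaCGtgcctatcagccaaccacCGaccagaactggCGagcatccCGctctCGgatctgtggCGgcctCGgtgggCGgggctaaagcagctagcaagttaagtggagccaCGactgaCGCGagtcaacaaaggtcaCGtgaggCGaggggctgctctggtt

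Kmt2a: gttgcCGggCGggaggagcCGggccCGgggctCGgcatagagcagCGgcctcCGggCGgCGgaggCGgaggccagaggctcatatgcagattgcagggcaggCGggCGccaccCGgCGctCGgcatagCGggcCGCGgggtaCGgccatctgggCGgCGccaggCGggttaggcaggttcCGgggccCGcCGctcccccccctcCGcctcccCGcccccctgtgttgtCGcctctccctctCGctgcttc

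The Kdm6a window held 15 CpG and 59.6% G and C, and the Kmt2a window held 29 CpG and 76.8% G and C. The median over 32851 promoter windows of all genes was 6 CpG. RefSeq gave 50 windows for 37 of the 44 genes, with a median of 21.5 CpG and a range of 1 to 48. The Kmt2c window held 48 CpG, more than in 99.8% of all windows. The TATA box letters TATAAA, searched on both strands, were in the windows of Jarid2 and Ncoa6 and in 12.4% of all windows, and the letters CGCATGCG were in those of Pagr1a and Paxip1 and in 1.55% of all windows. The letters CCGGAAGT, in 2.88% of all windows, were in no member window. No motif searched contains another, and a match is a description only.

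Kdm6a (ENSMUSG00000037369, chrX:18162575-18279936) stood at 104.3, 96.3, 100.2 and 103.6 CPM in cKO, in the order of replicates 2, 3, 7 and 12 that is kept throughout. The WT replicates 10, 14 and 19 held 119.6, 124.9 and 112.9 CPM. Every cKO library lay below every WT library, but by a small margin: the fall was 0.24 ± 0.06 on the log2 scale (SE, adjusted p = 0.0414), or 15.2%. The exact permutation test of the CPM gave p = 0.0286, two-sided, the smallest that the 35 splits of 7 libraries allow. Whole-gene counts cannot show the loss of some exons from a transcript that is still made, and the sources used here do not name the floxed exons. The call was lost in 6 of the 7 fits that left out a single library, every one but that without cKO replicate 2, with adjusted p from 0.0378 to 0.173 and log2 fold changes from -0.27 to -0.21.

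Kdm6b (ENSMUSG00000018476) encodes the other demethylase of H3K27 trimethylation, one that is known to be induced in activated cells. It stood at 470.0, 649, 680.3 and 644 CPM in the cKO libraries and at 671, 786 and 686 CPM in WT. The groups overlapped, and cKO replicate 2 was far below the rest. The log2 fold change was -0.23 ± 0.12 (SE, 95% interval -0.50 to 0.05, adjusted p = 0.333), and -0.12 without cKO replicate 2. Kdm6b thus did not rise past the threshold in the cKO group, and its antisense neighbour Kdm6bos had 20.6 CPM in cKO, against 25.2 in WT (adjusted p = 0.241). Per kilobase of merged exons Kdm6b was the highest of the 44 genes, at 94.2 CPM per kb over all libraries against 13.0 for Kdm6a. The ratio of Kdm6b to Kdm6a per length ran from 5.43 to 8.18 in cKO and from 6.77 to 7.58 in WT.

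**Figure D2:**
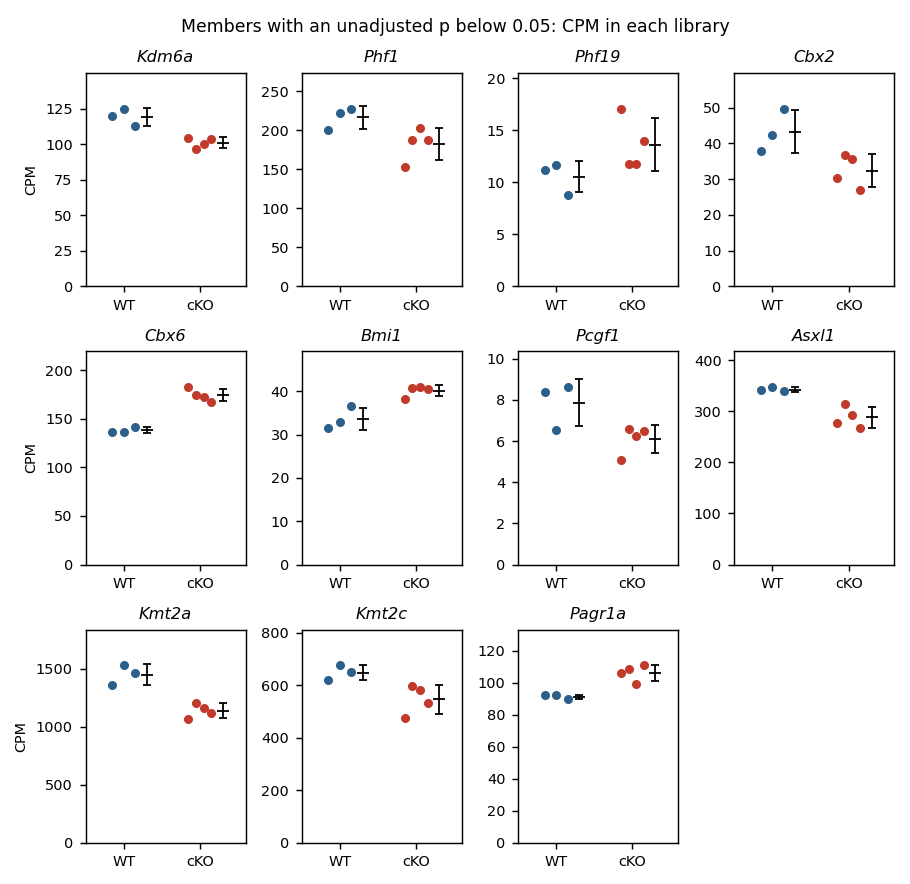
CPM (y axes, from 0) in each library of the 11 genes with an unadjusted p below 0.05, with the mean and SD beside the points (3 WT in blue, 4 cKO in red). Kmt2a lies between 1065 and 1209 CPM in cKO and between 1358 and 1532 in WT, while for Phf1 and Pcgf1 the groups overlap.

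The PRC2 core changed in no member past the threshold, and each of its 6 log2 fold changes was below 0.1 in size, as were 28 of the 44 members (63.6%) and 48.2% of the 10422 tested genes with a mean CPM at least that of the lowest member. Ezh2, the methyltransferase of dividing cells, stood at 56.3, 47.3, 50.1 and 52.5 CPM in cKO and at 58.6, 46.7 and 45.9 CPM in WT. The highest and the lowest of its values were both WT libraries, and the log2 fold change of 0.03 had a 95% interval of -0.19 to 0.25 (adjusted p = 0.897). It took the opposite sign in 5 of 16 other settings. The sum of proliferation markers, with which Ezh2 is known to move, also overlapped between the groups, at 883 to 1307 CPM in cKO and 926 to 1301 in WT. Of the 20 markers 16 had a log2 fold change below 0 and 4 above, with a median of -0.06. EdgeR called none of these markers, while DESeq2 and limma voom each called Pcna, lower in cKO.

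Ezh1, its paralogue of resting cells, stood at 179, 193, 190.0 and 171 CPM in cKO and at 186, 195 and 184 in WT, with a log2 fold change of -0.04 (95% interval -0.17 to 0.10, adjusted p = 0.781). Per length Ezh1 was above Ezh2 in every library, by 2.84 to 3.74 times, and the groups overlapped. Eed, which binds the finished mark, stood at 54.6, 54.6, 54.9 and 63.4 CPM in cKO and at 57.4, 54.9 and 53.8 in WT (log2 0.04, 95% interval -0.12 to 0.20, adjusted p = 0.811). Its sign turned with limma voom or without cKO replicate 12, the library at 63.4. Suz12, the scaffold subunit, stood at 152, 148, 161 and 161 CPM in cKO and at 145, 149 and 154 in WT (log2 0.06, 95% interval -0.07 to 0.18, adjusted p = 0.606). The histone chaperones Rbbp4 and Rbbp7 had log2 fold changes of -0.06 each (adjusted p = 0.56 and 0.661).

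Among the accessory subunits that steer PRC2, none passed the threshold, and Phf1 and Phf19 had the lowest p. Both are Polycomb-like proteins that recruit PRC2 to chromatin. Phf1 stood at 153, 188, 202 and 187 CPM in cKO and at 200.1, 222 and 228 in WT, with a log2 change of -0.25 ± 0.09 (SE, adjusted p = 0.164). Its groups overlapped by 1 library, cKO replicate 7. Of its merged exon length 39.3% lies over Cuta on the other strand, and the sources used here do not say whether counting used strand. Cuta itself had a log2 fold change of 0.07. Phf19 stood at 17.1, 11.7, 11.8 and 13.9 CPM in cKO and at 11.2, 11.6 and 8.82 in WT (log2 0.36 ± 0.16, adjusted p = 0.223). Its cKO libraries were all higher, with the lowest of them 0.1 CPM above the highest WT library. Mtf2, the third Polycomb-like gene, Jarid2 and Aebp2, which mark the other form of PRC2, had log2 fold changes of 0.02, 0.02 and -0.06.

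PRC1 held the only member that rose. Cbx6 (ENSMUSG00000089715, chr15:79823896-79834688), one of the chromodomain subunits that read H3K27 trimethylation, stood at 183, 175, 172 and 167 CPM in cKO. It stood at 137, 136 and 141 CPM in WT, so that the lowest cKO library was 25.9 CPM above the highest WT library. The rise was 0.34 ± 0.05 on the log2 scale (SE, adjusted p = 0.00623), or 26.2%. It was past the threshold in all 16 other settings tried, including each left-out library (adjusted p from 0.00808 to 0.0492 over those 7). Npcd, a gene on the same strand that shares 5.31% of the Cbx6 exon bases, also rose (log2 0.50 ± 0.09, adjusted p = 0.0125), from 11.8 to 16.7 CPM, while Cbx6 went from 138 ± 2.96 to 174 ± 6.37 CPM (mean ± SD, n = 3 and 4). The sources used here do not say how reads in the shared bases were divided.

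The other chromodomain genes did not pass. Cbx7, per length the highest of the PRC1 genes at 71.4 CPM per kb, stood at 355, 490.2, 453 and 457 CPM in cKO and at 469.7, 535 and 481 in WT (log2 -0.17 ± 0.10, adjusted p = 0.386). Cbx2 stood at 30.2, 36.6, 35.6 and 26.8 CPM in cKO and at 37.7, 42.4 and 49.7 in WT. Its groups were apart in the direction opposite to Cbx6, with a log2 fold change of -0.42 ± 0.13 and an adjusted p of 0.0908 (0.00239 to 0.285 over the other settings). Cbx8, the chromosome 11 neighbour of Cbx2, averaged 17.8 ± 1.94 CPM in cKO and 17.5 ± 1.87 CPM in WT (SD). The ratio of Cbx7 to Cbx6 per length was 3.18, 4.59, 4.30 and 4.47 in the cKO libraries, against 5.62, 6.43 and 5.56 in those of WT, lower in each cKO library.

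Neither catalytic subunit of PRC1 passed the threshold. Ring1 stood at 33.5, 41.4, 44.3 and 35.8 CPM in cKO and at 39.7, 38.7 and 41.9 in WT (log2 -0.05, 95% interval -0.27 to 0.18, adjusted p = 0.838, with the sign turned by limma voom or without cKO replicate 2). Rnf2, its paralogue, stood at 49.8, 48.1, 50.3 and 46.9 CPM in cKO and at 48.8, 49.9 and 53.2 in WT (log2 -0.05, 95% interval -0.19 to 0.08, adjusted p = 0.676). In both the groups overlapped.

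Bmi1, the Pcgf subunit known for self-renewal of stem and memory cells, stood at 38.3, 40.8, 41.0 and 40.6 CPM in cKO and at 31.6, 32.8 and 36.6 in WT. It was higher in every cKO library, with a log2 fold change of 0.26 ± 0.07 (SE) and an adjusted p of 0.0709 (0.0118 to 0.246 over the other settings, with the lowest from limma voom or DESeq2). Pcgf1, the subunit of the variant complex with Kdm2b and Bcor, stood at 5.08, 6.57, 6.25 and 6.49 CPM in cKO and at 8.39, 6.56 and 8.62 in WT (log2 -0.36 ± 0.15, adjusted p = 0.204). The WT library at 6.56 lay within the cKO range. Its partners had log2 fold changes of 0.19 (Kdm2b, adjusted p = 0.243) and 0.01 (Bcor, adjusted p = 0.969), and Pcgf3, Pcgf5 and Pcgf6 had 0.06, -0.13 and -0.08. Pcgf5 was lower in every cKO library without passing (adjusted p = 0.358).

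Asxl1 and Bap1 form the deubiquitinase that removes the PRC1 mark from histone H2A. Asxl1 stood at 277, 314, 293 and 267 CPM in cKO and at 341, 347 and 339 in WT. Each cKO library was lower, and with a log2 fold change of -0.25 ± 0.07 (SE) its adjusted p of 0.0545 missed the threshold (0.00751 to 0.184 over the other settings, 5 of 16 below 0.05). The catalytic subunit Bap1 had a log2 change of 0.02 ± 0.06 (adjusted p = 0.922).

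**Figure D3:**
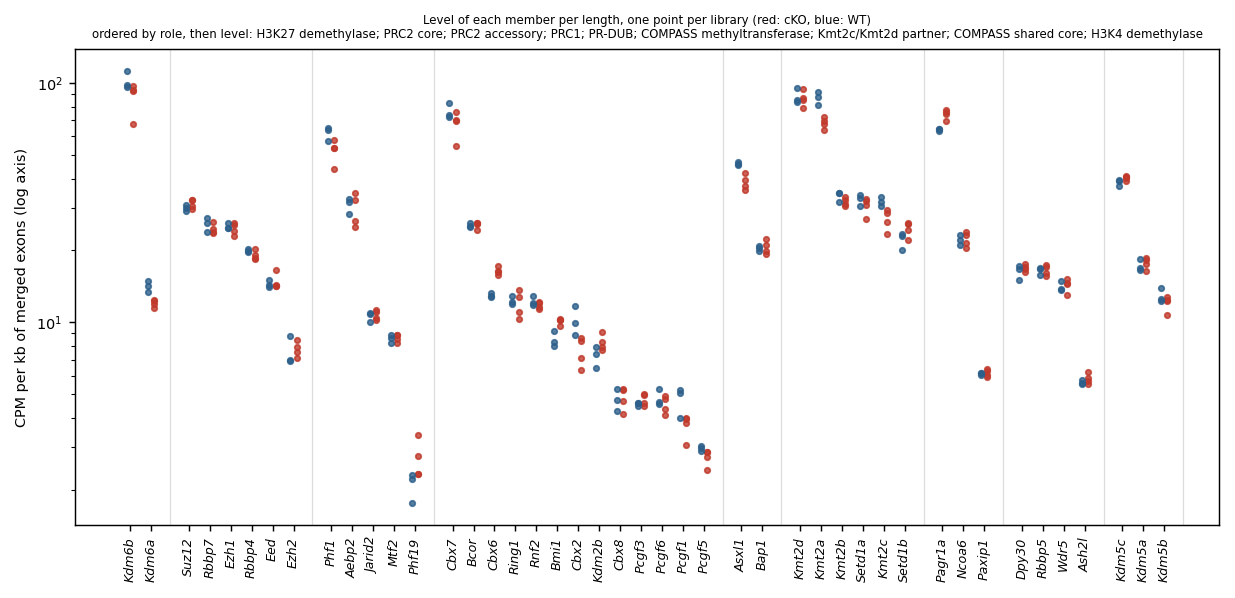
Level of the 44 genes in CPM per kb of merged exons (log axis), 1 point per library (4 cKO in red, 3 WT in blue), in groups by role and sorted within each. The means over all libraries run from 2.44 for Phf19 to 94.2 for Kdm6b, a range on which differences within a gene look small. Kmt2a lies at 63.9 to 72.5 in cKO and at 81.4 to 91.9 in WT, while Kmt2d overlaps, at 78.5 to 94.3 and 83.8 to 95.9.

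Kmt2a fell among the COMPASS methyltransferases. It encodes the mixed lineage leukemia protein, which keeps Hox and other developmental genes active and is known to support memory Th2 cells. Kmt2a (ENSMUSG00000002028, chr9:44803355-44881296) stood at 1065, 1209, 1165 and 1123 CPM in cKO and at 1358, 1532 and 1462 in WT. The highest cKO library was 149 CPM under the lowest WT library. The fall was 0.35 ± 0.07 on the log2 scale (SE, adjusted p = 0.0181), or 21.4%. The call was lost without WT replicate 14 or 19 (adjusted p up to 0.0949 over the left-out libraries) and without cKO replicates 2 and 7 together.

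Kmt2b, the closest paralogue of Kmt2a, had a log2 change of -0.08 ± 0.06 (adjusted p = 0.51). The ratio of Kmt2a to Kmt2b per length was 2.087, 2.171, 2.139 and 2.156 in the cKO libraries, against 2.563, 2.641 and 2.531 in those of WT. This ratio varied little within either group and was lower in every cKO library.

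Kmt2c and Kmt2d place the enhancer mark in the complexes that hold Kdm6a. Kmt2c stood at 474, 598, 582 and 532 CPM in cKO and at 620.0, 677 and 649 in WT, lower in each cKO library, with a log2 change of -0.25 ± 0.08 (SE, adjusted p = 0.123). It passed in none of the 16 other settings. Kmt2d stood at 1565, 1879.7, 1704 and 1728 CPM in cKO and at 1669.8, 1911 and 1700.5 in WT (log2 -0.03, 95% interval -0.21 to 0.15, adjusted p = 0.858). Its groups overlapped throughout, and its sign turned in 3 of 16 other settings. Per length Kmt2d was the highest of the methyltransferases at 87.1 CPM per kb, and Kmt2c stood at 0.298 to 0.335 of its level in cKO and at 0.348 to 0.375 in WT. Setd1a and Setd1b, which place most promoter H3K4 trimethylation, had log2 fold changes of -0.09 and 0.15 (adjusted p = 0.568 and 0.322). Of the merged exon length of Setd1a, 51.85% is also annotated to a same-strand gene model that has no row in the count table. Whether that model played a part in the counting is not known, so the reads of Setd1a are uncertain.

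The 3 partners of Kmt2c and Kmt2d in these complexes had no call. Pagr1a, a small adaptor, stood at 106, 109, 99.1 and 111 CPM in cKO and at 92.1, 92.2 and 90.03 in WT. It was higher in every cKO library, and its log2 fold change of 0.22 ± 0.06 (SE) had an adjusted p of 0.0556 (0.016 to 0.176 over the other settings, 5 of 16 below 0.05). Its exons share 24.3% of their bases with the copy Pagr1b, which had a log2 fold change of -0.02. They share 98.7% with a same-strand gene model that has no row in the count table. How the shared reads were counted is not known, so the reads of Pagr1a are uncertain. Paxip1 and Ncoa6 each had 0.01. In the shared core, Ash2l, Rbbp5, Wdr5 and Dpy30 had log2 fold changes from 0.00 to 0.05, and Dpy30, the highest of them per length, stood at 18.6, 19.5, 19.2 and 20.1 CPM in cKO and at 19.8, 17.2 and 19.3 in WT (adjusted p = 0.79).

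No H3K4 demethylase passed the threshold. Kdm5c, X-linked and known to escape X inactivation as Kdm6a does, stood at 278, 286, 288 and 290.1 CPM in cKO and at 279, 279.6 and 265 in WT (log2 0.06, 95% interval -0.06 to 0.17, adjusted p = 0.579). Kdm5a and Kdm5b had 0.03 and -0.10 (adjusted p = 0.839 and 0.507). The other X-linked members, Rbbp7 and Bcor, were also not past the threshold, so that of the 4 members on that chromosome only the deleted gene was.

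Looking across roles, 11 of the 44 genes (25.0%) had an unadjusted p below 0.05, against 21.5% of all tested genes, 4 with a positive log2 fold change (11.1% of all tested genes) and 7 with a negative one (10.4%). The cKO and WT libraries did not overlap for 10 members (22.7%), against 21% of all tested genes. The median log2 fold change of the members was 0.00, against 0.01 over all tested genes, with 23 above and 21 below 0. In both measures the members were near the background. DESeq2 called 7 of the 44 where it called 10.2% of all genes, adding Asxl1, Bmi1, Cbx2 and Pagr1a, and limma voom called 5 where it called 10.8%, adding Asxl1 and Bmi1. A proliferation covariate in edgeR gave 6 calls among the members, where 8.99% of all genes passed, and a threshold of 0.1 gave 7, where 10.3% passed. Without cKO replicates 2 and 7, which had the highest B cell marker sums, Cbx6 alone was called, where 4.36% of all genes were.

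**Figure D4:**
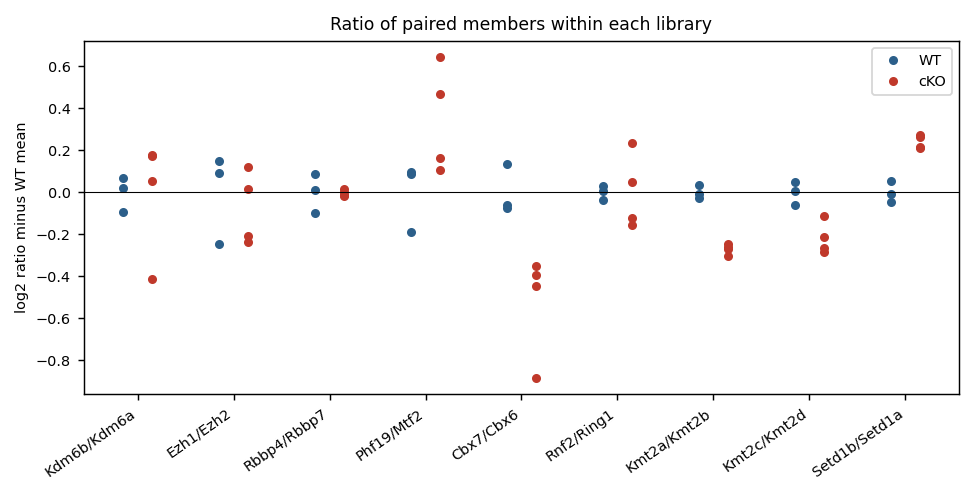
Log2 ratio of paired members per length within each library, less the WT mean (y axis), for 9 pairs (x axis), WT in blue (3) and cKO in red (4). Kmt2a/Kmt2b and Cbx7/Cbx6 lie below and Setd1b/Setd1a lies above every WT library in all 4 cKO libraries.

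Of 9 such ratios compared, 3 reached the smallest exact permutation p that their 35 splits allow, 0.0286, two-sided, and none passed after Benjamini-Hochberg adjustment over the 9 (adjusted p = 0.0857 for each of the 3). These were Kmt2a/Kmt2b, with a log2 ratio 0.27 lower in cKO (1.10 ± 0.02 against 1.37 ± 0.03, SD), Cbx7/Cbx6, 0.52 lower (2.03 ± 0.25 against 2.55 ± 0.12), and Setd1b/Setd1a, 0.24 higher (-0.32 ± 0.03 against -0.56 ± 0.05). With only 3 of the 9 at the smallest p, no adjusted p below 0.05 was possible, whatever the size of these differences. That none passed therefore says nothing about them. Kmt2c/Kmt2d was 0.22 lower in cKO and did not overlap (exact p = 0.0571, adjusted p = 0.129), nor did Phf19/Mtf2 (exact p = 0.143). Ratios of Kdm6b/Kdm6a, Ezh1/Ezh2, Rbbp4/Rbbp7 and Rnf2/Ring1 overlapped between groups, with adjusted p = 1 by the exact test.

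The wider pathway list gave a similar picture. Of 48 other Polycomb and COMPASS genes in the table, 45 were tested and 1 was called, against 6.44% of all tested genes. This was Setd7, which encodes a monomethyltransferase of H3K4 and of other proteins. It stood at 262, 299, 280.1 and 258 CPM in cKO and at 327, 343 and 330.1 in WT, lower in every cKO library (log2 -0.28 ± 0.06 SE, adjusted p = 0.0351). The call was lost in 6 of 7 fits that left out a library and with upper-quartile factors. On the other strand 5031434O11Rik, which shares 1.21% of the Setd7 exon bases, fell too, from 25.3 to 15.2 CPM (log2 -0.73 ± 0.14 SE, adjusted p = 0.0162 by edgeR). With Setd7, 12 of the 45 tested genes had an unadjusted p below 0.05, against 21.5% of all tested genes. The other 11 did not pass, among them Phc2 and Phc3, Polyhomeotic subunits of PRC1, each with a log2 fold change of 0.18, and Psip1, which tethers Kmt2a to chromatin, with -0.20 (adjusted p = 0.0879, 0.108 and 0.0747). These 3 were picked after their values were seen.

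Classical targets of Polycomb silencing were mostly too low to test. Of 63 listed, 62 were found under their symbol and 12 passed the filter on low counts. Cdkn2a and Hoxa2 were called. The 12 do not stand for the list, since the filter kept those with reads, in some through 1 group alone, and no count over them is read against the background. Cdkn2a, a cell cycle inhibitor locus that Polycomb silences in dividing cells, stood at 7.19, 2.95, 4.12 and 5.35 CPM in cKO and at 1.82, 1.87 and 1.06 in WT. The rise, in every cKO library, was 1.61 ± 0.33 on the log2 scale (SE, adjusted p = 0.0211). It was called as well without cKO replicate 2, the library with the highest level. Its neighbour Cdkn2b stood at 8.35, 3.70, 4.43 and 4.31 CPM in cKO and at 2.82, 2.43 and 1.30 in WT, also apart, with a log2 change of 1.24 ± 0.35 (adjusted p = 0.072).

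The Hoxa genes, targets of both Polycomb and Kmt2a, were measured at very low levels. Hoxa2 stood at 0.234, 0.208, 0.347 and 0.284 CPM in cKO and at 1.16, 0.59 and 0.906 in WT, a fall of 1.69 ± 0.36 on the log2 scale (SE, adjusted p = 0.0253). It had 4 to 8 reads in a cKO library and 17 to 30 in a WT library, and it passed the filter on low counts, 0.422 CPM in 3 libraries, through the WT group alone. The group where it was high therefore put it among the tested genes. Without any filter its adjusted p was 0.0287, and with a filter at 1 CPM it was not tested. Part of its exon length (15.04%) is shared with a same-strand gene model that has no row in the count table. Hoxa3 to Hoxa7 were not called and had log2 fold changes from -1.24 for Hoxa4 to -0.38 for Hoxa6, Hoxa4 being over the filter in 1 cKO library and in all 3 of WT. In Hoxa3, Hoxa5 and Hoxa7 every cKO library was below every WT library. Hoxb4 averaged 8.21 ± 1.23 CPM in cKO, against 6.96 ± 0.23 CPM in WT (SD, adjusted p = 0.387). The Cdkn2a call was lost without any 1 of the WT replicates 10, 14 and 19, and that of Hoxa2 without cKO replicate 3 or WT replicate 10 or 19 (adjusted p up to 0.0876 and 0.123). That the Hoxa genes are described together was decided after their values were seen.

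**Figure D5:**
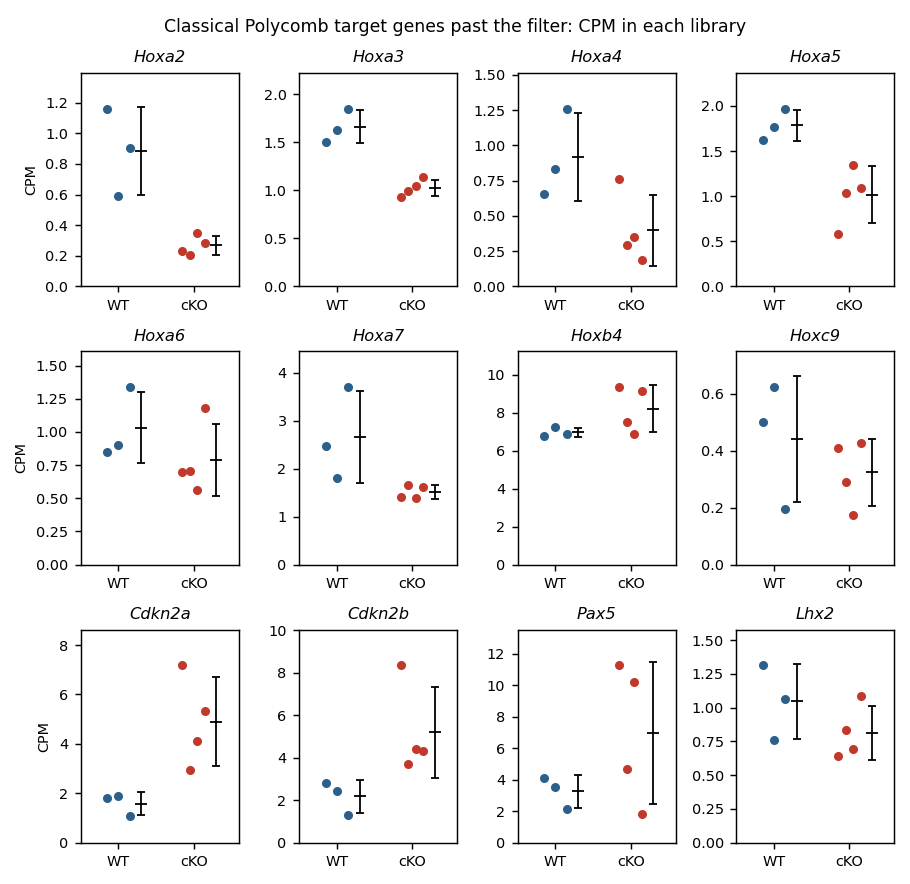
CPM (y axes, from 0) in each library of the 12 Polycomb target genes that passed the filter, with mean and SD beside the points (3 WT in blue, 4 cKO in red). Cdkn2a lies between 2.95 and 7.19 CPM in cKO and at most at 1.87 in WT, while Hoxa2 lies at most at 0.347 CPM in cKO and at least at 0.59 in WT.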

How the data were processed

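The deposited table holds raw counts of reads per gene for 7 libraries, made by the authors. Per the labels' protocols the libraries were made from enriched mRNA with a stranded kit, and the submitters' processing notes name bcl2fastq 2.17 and the mm10 build. The sources used here do not name the aligner, the counter or its strand setting.

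Of 39017 genes, 13964 had no counts. Genes were filtered with filterByExpr, scaled by TMM and tested by edgeR 4.0.16 (R 4.3.3) in its quasi-likelihood form, cKO against WT, with Benjamini-Hochberg adjustment over 15968 genes at 0.05. CPM used the library sizes after the filter, scaled by TMM, and levels were compared between genes only per kb of merged GENCODE M21 exons. Paralogue ratios and the Kdm6a level were tested by exact permutation over 35 splits, two-sided. Of the identifiers, 37693 matched that annotation. No libraries were duplicates: chi-square per gene was at least 6.28 for each pair.

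On simulated counts for cKO against WT (15746 genes, 50 changed at each size), edgeR called 54% at a log2 change of 0.59, 70% at 1, 96% at 2 and 100% at 3, with 11 false among 171 calls. Every change among the 44 genes was smaller than the smallest simulated. The changed genes were drawn from tested genes of all but the lowest levels and were not matched to the members. The median of the mean levels was 102 CPM for the members and 17.8 CPM for all tested genes, so these shares are not rates for the members.

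Members given library by library were those with an unadjusted p below 0.05, the highest per length of each role, and always Kdm6a, Kdm6b, Ezh1, Ezh2, Eed, Suz12, Ring1, Rnf2, Kmt2c, Kmt2d and Kdm5c. From the other lists, called genes and at most 6 a list by lowest p were named, and other names are marked in the text. The members and lists were chosen with earlier results of these data known. Alternatives were DESeq2 1.42.0, its size factors, limma 3.58.1 (voom with quality weights), upper-quartile factors, other filters, a threshold of 0.1, a proliferation covariate and each library left out. Added after seeing the data were fits without Gm42418 and without cKO replicates 2 and 7.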

Additional observations from a re-analysis of the deposited data

Results flagged for a closer look

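The CPM of 56 groups of 4 cKO libraries was searched for a library far from the rest, by Dixon's ratio at its 95% critical value, and 4 stood out. Chance gives about 1 in 20 such groups. Kdm6b was at 470.0 CPM in cKO replicate 2, below the other cKO libraries. Bmi1 at 38.3 CPM and Bcor at 210.2 CPM were also lowest in cKO replicate 2, the library with the highest share of Gm42418. Eed was highest in cKO replicate 12, at 63.4 CPM. No reason for these values was tested.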

How the results depend on the processing

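Cbx6 was past the threshold in all 16 other settings. Over 25 named genes, 367 of 424 values kept their direction and side of the threshold, 26 lost the call, 18 gained it and 13 changed sign. The number of members called was 7 at a threshold of 0.1, 7 with DESeq2, 5 with limma voom, 6 with the proliferation covariate, 1 without cKO replicates 2 and 7, and 1 to 3 with 1 library left out, where 2.58% to 6.73% of all genes were called. Among the other Polycomb and COMPASS genes it was 5, 6, 5, 2 and 0 in the same settings, 0 with upper-quartile factors and 0 to 1 with 1 library left out. Of the Polycomb targets 1 was called with the stricter filter, 0 without cKO replicates 2 and 7, and 0 to 3 with 1 library left out. All genes called numbered 1028 in the reported fit, 1644 at 0.1, 1625 with DESeq2, 1729 with limma voom, and 419 to 1065 with 1 library left out.

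The Kdm6a difference in CPM ran from -21.2 to -15.2 with 1 library left out, where the exact test can reach only 0.1 or 0.0667. Log2 fold changes that changed sign were those of Ezh2 (-0.051 with limma voom, -0.019 without cKO replicates 2 and 7, and -0.031 to 0.15 with 1 library left out), Eed (-0.0027 with limma voom, -0.018 to 0.064 with 1 left out), Ring1 (0.051 and -0.12 to 0.013), Kmt2d (0.031 without cKO replicates 2 and 7, -0.079 to 0.024 with 1 left out) and Dpy30 (-0.016 to 0.086 with 1 left out). So did the log2 ratio differences of Kdm6b/Kdm6a (-0.061 to 0.14), Rbbp4/Rbbp7 (-0.051 to 0.040) and Rnf2/Ring1 (-0.074 to 0.056) with 1 library left out. The causes were not tested. No paired analysis was possible because the labels do not say which cKO and WT libraries share a litter or batch. Simulated log2 changes of 0.59 were called in 54% of cases, but over tested genes at large, not genes matched to the members. The median SE of the members was 0.07, against 0.12 over all tested genes, so 54% is not a rate for the members. Smaller changes were not simulated, so a member that missed the threshold is not shown to be unchanged.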

Other observations

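The direction and length of members were set side by side as a description: Spearman's rho between log2 fold change and merged exon length was -0.07 over the 44 genes and 0.05 over 15708 tested genes, and genes of a library share its depth. The antisense transcript Hoxaas3 at the Hoxa cluster fell (log2 -1.10 ± 0.27 SE, adjusted p = 0.0449 by edgeR), from 2.16 to 0.992 CPM. It was named after its values were seen, and it shares exon bases with Hoxa genes, so its reads cannot be told apart from theirs where strand was not used.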
